A study of Mus musculus with 12 samples.

Results

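The Oas family encodes oligoadenylate synthetases and their like. Its members here are Oas1a, Oas1b, Oas1g, Oas2, Oas3, Oasl1 and Oasl2, which are 7 of 24505 genes named on the array, and every probe that the deposited bead table gives one of these symbols was taken. They have 17 of the 45281 probes on the array, and 13 of the 17 passed the filter on low values, a detection score above 0.95 on at least 3 of the 12 arrays. RNA was hybridised to Illumina Mouse WG6V2 BeadChips from bone marrow sorted as Lineage- Kit+ CD45.2+, a gate that keeps mainly blood-forming progenitors. The marrow came from the femur and tibia of chimeric mice, 12 to 16 weeks after they received 2000000 fetal liver cells of embryonic day 13.5, and the labels give the strain of every sample as C57BL/6. Experiment 1 set caspase-9 knockout cells (Casp9 KO) against wild type (WT experiment 1), and experiment 2 set cells lacking both Bak and Bax (Bak/Bax DKO) against their own wild type (WT experiment 2). Each of the 4 groups has 3 arrays of samples that the series text calls independent, and each experiment lies on a BeadChip of its own. In such chimeras the sort keeps cells of donor type, while the rest of the animal is the host's. Nothing used here says whether each sample is an animal of its own. The p-values therefore rest on the spread among samples, which may be technical.

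Oligoadenylate synthetases bind double-stranded RNA and then join ATP into short chains known as 2-5A. 2-5A is a second messenger that leads to the breakdown of viral and cellular RNA. The genes are induced by interferon, through the interferon-stimulated response element (ISRE) in their promoters. Caspase-9 starts the caspase cascade once Bak and Bax have opened the outer mitochondrial membrane. The series concerns cytokine signals that caspase-9 controls, by its title.

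The promoters of the Oas genes are shown because interferon is known to act on such genes through a short promoter element. Whether this element had a part in the changes given below was not tested. RefSeq promoter windows of 300 bases, 250 before and 50 after a start site, were given for 5 of the 7 members, on build GRCm38.p6, and none was used for Oas1b or Oas2. The table's start site lies 0 to 97 bases inside the span that RefSeq gives for the gene. The 120 bases before it are printed here from 5′ to 3′ on the strand of the gene, with matches to the ISRE core (GAAA, any 2 bases, GAAA) in capitals.
Oas1a, chr5:120907526-120907645, minus strand: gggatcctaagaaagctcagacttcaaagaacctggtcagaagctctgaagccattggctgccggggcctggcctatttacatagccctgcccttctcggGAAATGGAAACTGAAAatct
Oas1g, chr5:120887614-120887733, minus strand: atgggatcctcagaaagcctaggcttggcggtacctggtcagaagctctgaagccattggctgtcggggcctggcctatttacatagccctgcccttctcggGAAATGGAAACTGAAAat
Oas3, chr5:120777660-120777779, minus strand: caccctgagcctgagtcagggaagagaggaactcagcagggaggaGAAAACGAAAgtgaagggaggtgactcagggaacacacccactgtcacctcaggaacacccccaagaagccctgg
Oasl1, chr5:114923120-114923239, plus strand: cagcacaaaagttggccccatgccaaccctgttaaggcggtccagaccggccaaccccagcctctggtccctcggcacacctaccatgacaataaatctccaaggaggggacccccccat
Oasl2, chr5:114896814-114896933, plus strand: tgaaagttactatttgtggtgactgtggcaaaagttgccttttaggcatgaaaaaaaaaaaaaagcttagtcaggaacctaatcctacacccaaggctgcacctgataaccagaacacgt

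Both strands of the full windows were searched. Oas1a and Oas1g each held 2 overlapping ISRE cores on the strand of the gene, at -20 to -11 and -14 to -5 from the start site in Oas1a and at -18 to -9 and -12 to -3 in Oas1g. These neighbouring genes shared an unbroken run of 73 identical bases around the start site, from -58 to 14 in Oas1a and from -56 to 16 in Oas1g. Oas3 held 1 ISRE core, at -75 to -66. The windows of Oasl1 and Oasl2 held none, which says only that these letters are not in these windows. Of all 32851 promoters of this length, 3.44% held the ISRE core and 0.225% held it 2 or more times. The STAT palindrome TTCNNNGAA, which is not marked in capitals, was found in Oas1a alone among the 5 members, at -98 to -90, and in 8.3% of all promoters. It did not overlap the ISRE cores. Among paralogues outside the member list, Oas1c held 2 overlapping ISRE cores on the opposite strand, and Oas1f and Oas1h held neither motif.

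**Figure D1:**
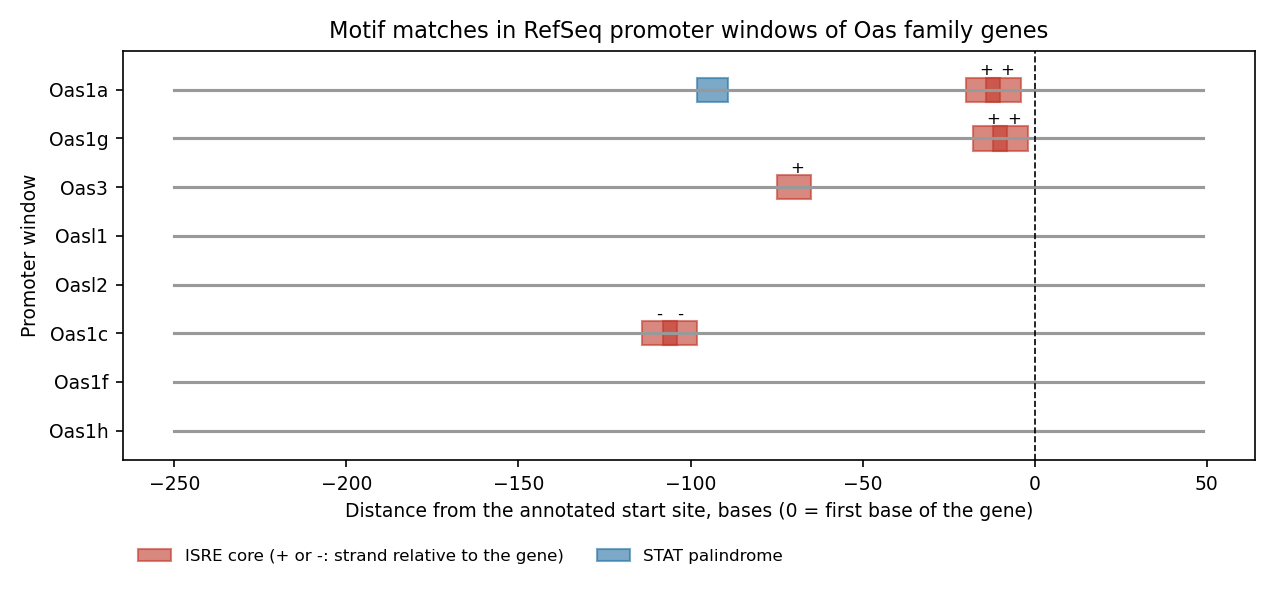
Positions of motif matches in the RefSeq promoter windows of 5 members and of the paralogues Oas1c, Oas1f and Oas1h, in bases from the start site, with + and - for the strand relative to the gene. The paired ISRE cores of Oas1a and Oas1g lie directly before the start site, that of Oas3 further upstream, and the Oasl1 and Oasl2 lines carry no match.

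Between 35.7% and 39.7% of all probes were above background on each array. Mean bead intensity was 234.5 on Bak/Bax DKO replicate 2 and 321.5 to 522.0 on the other 11 arrays. That array stood apart: over the 18867 tested probes its log2 values correlated with those of the others at 0.716 to 0.740, while the best match of every other array was 0.982 to 0.993. Many results on Bak/Bax DKO are therefore given with and without it, and the rest include it. The deleted genes followed the labels. Casp9 fell by 3.25 on the log2 scale in Casp9 KO (limma adjusted p = 3.0e-05). In Bak/Bax DKO, Bak1 fell to below background on all 3 arrays and Bax fell by 1.82 (adjusted p = 0.00038). The deleted parts of these genes are not stated, so a probe outside them would check nothing. Of the stem and progenitor markers, Kit, Ptprc, Cd34, Myb and Gata2 were above the filter and Flt3 was not.

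All values below are deposited normalized log2 intensities, on which unbound probes sit near 4.4. A change of 1 is a doubling, and values of different probes cannot be set against each other. In bulk samples such as these, fewer cells with a transcript and less transcript per cell cannot be told apart. A call is an adjusted p under 0.05 from limma, with the Benjamini-Hochberg method over all 18867 probes. The files place every member probe on chromosome 5, and the positions given are theirs, on a genome build that they do not name.

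The family was widely higher in Casp9 KO. Of the 13 tested probes 11 rose, 0 fell and 2 did not pass, where 0.88% of all tested probes rose and 0.265% fell. The risen probes belong to 6 of the 7 genes, Oas1b being the exception. The median log2 change of the 13 was 2.27, against -0.03 over all tested probes, and the Casp9 KO and WT experiment 1 arrays did not overlap for any of the 13, as for 10.4% of all probes in that direction. These counts describe the probes that passed the filter: Oas1a ILMN_2924839, Oas1g ILMN_2816196 and Oas3 ILMN_1216020 passed only through the Casp9 KO arrays, where they are high, and so had to differ.

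**Figure D2:**
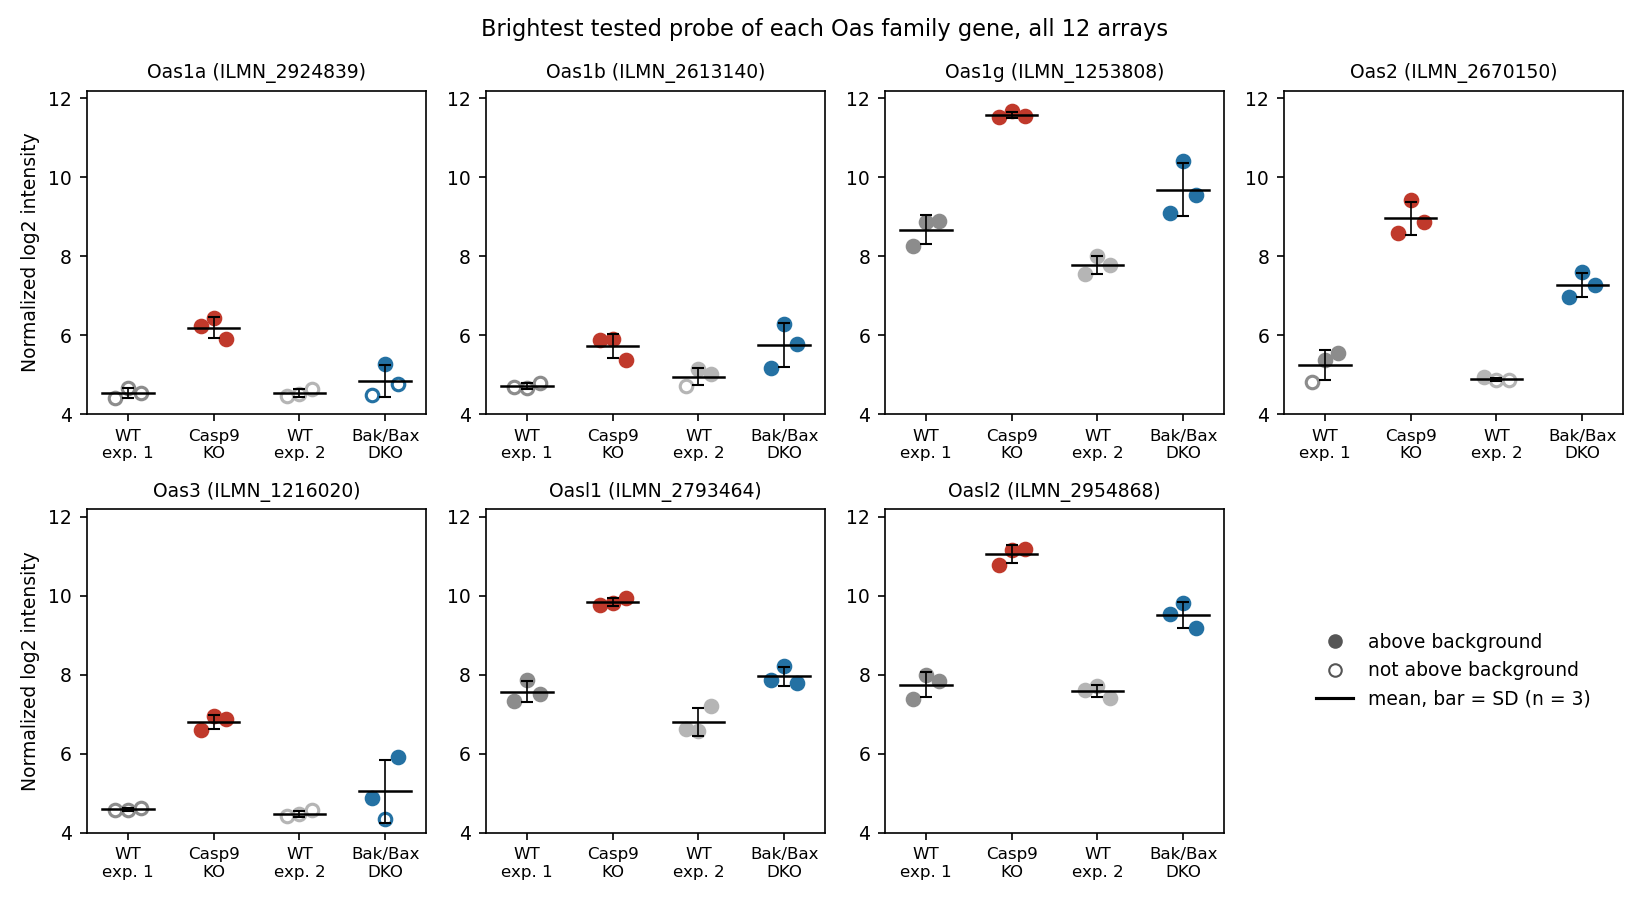
Normalized log2 intensity of the brightest tested probe of each gene on all 12 arrays, with open points for arrays not above background and black lines for the group mean with its SD (n = 3). Casp9 KO lies highest for 6 genes, above all other arrays, and for Oas1b the Casp9 KO and Bak/Bax DKO points overlap.

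Oas1g, which encodes a synthetase of a single core unit, was the Oas1 gene with probes above background on all 12 arrays. Its probe ILMN_1253808 (121328366 to 121328415, minus strand) was at 8.26, 8.87 and 8.90 in WT experiment 1 and at 11.54, 11.67 and 11.55 in Casp9 KO. All 3 knockout arrays lay far above all wild-type arrays and within a narrow range. The mean rose from 8.68 ± 0.36 to 11.59 ± 0.08 (SD, n = 3), a log2 change of 2.91 (SE 0.30, limma adjusted p = 0.00048) or 7.51-fold. A second Oas1g probe, ILMN_2628822 (121335791 to 121335840), was at 7.13, 7.61 and 7.72 in wild type and at 10.58, 10.57 and 10.50 in the knockout, without overlap. It rose by 3.07 (SE 0.23, adjusted p = 5.4e-05), so that both bright probes of the gene gave changes within 1 SE of each other.

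The remaining Oas1g probes were dim. ILMN_2816196 (121326457 to 121326506) was not above background on any WT experiment 1 array, at 4.41, 4.54 and 4.44, and reached 5.75, 5.18 and 5.34 in Casp9 KO. It was at least 1.37-fold higher (adjusted p = 0.0086). A bound of this kind sets the knockout mean against the lowest signal above background on each wild-type array, or the probe's own signal where that was higher. This call was lost without WT experiment 1 replicate 1 (adjusted p = 0.058) or 3 (adjusted p = 0.053) and with median-centred arrays (adjusted p = 0.16), and the probe missed the filter without any 1 of the Casp9 KO arrays. ILMN_2624469 (121326160 to 121326209) was above background on 0 of 12 arrays, between 4.27 and 4.68, and was not tested.

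Oas1a, which also encodes a synthetase of a single core unit, was seen by ILMN_2924839 (121346372 to 121346421, minus strand). In WT experiment 1 it was at 4.42, 4.67 and 4.54, not above background on any array, and in Casp9 KO at 6.24, 6.43 and 5.90, above background on all 3. It was at least 2.33-fold higher, with a log2 change of 1.65 (SE 0.21, limma adjusted p = 0.0021). A second probe that the file names Oas1a, ILMN_1255890 (121346546 to 121346595), lists transcripts of both Oas1a and Oas1g, so its signal cannot be given to either gene. It was above background on 2 of 12 arrays, both of Casp9 KO, where it was at 4.86, 5.36 and 5.07, and it was not tested. Another, ILMN_1215809 (121356834 to 121356883), was above background on 0 of 12 arrays.

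Oas1b is the mouse flavivirus resistance gene, and RefSeq lists it as a transcribed pseudogene in the C57BL/6J reference. Its probe ILMN_2613140 (121273513 to 121273562, plus strand) was at 4.68, 4.67 and 4.79 in WT experiment 1, not above background, and at 5.89, 5.91 and 5.37 in Casp9 KO. The change of 1.01 (SE 0.26, limma adjusted p = 0.113) did not pass. ILMN_2823462 (121273645 to 121273694) was at 5.01, 4.73 and 4.40 in wild type and at 5.80, 6.29 and 5.24 in the knockout, a change of 1.07 (SE 0.27, adjusted p = 0.113) that did not pass either. The arrays of the 2 groups did not overlap for either probe. Without Bak/Bax DKO replicate 2, whose spread enters the shared variance, both reached the threshold (adjusted p = 0.0094 and 0.027). Then 13 of 13 member probes were higher, where 2.51% of 18664 probes were. Leaving out replicate 1 of that group instead brought ILMN_2613140 to an adjusted p of 0.045.

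Oas2, whose protein carries repeated core units, had the largest change of the 13 tested probes. Its single probe ILMN_2670150 (121180508 to 121180557, minus strand) was at 4.82, 5.37 and 5.56 in WT experiment 1, where replicate 1 was not above background, and at 8.58, 9.42 and 8.87 in Casp9 KO. Every knockout array lay more than 3 log2 units above the highest wild-type array. The mean went from 5.25 ± 0.38 to 8.96 ± 0.43 (SD, n = 3), a log2 change of 3.71 (SE 0.25, limma adjusted p = 2.7e-05) or 13.1-fold. Without background correction the change was 2.24 (adjusted p = 9.8e-05) and Oasl2 ILMN_2954868 had the largest one, 2.87.

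Oas3, the largest synthetase, rose from below background. Its probe ILMN_1216020 (121203573 to 121203622, minus strand) was at 4.58, 4.57 and 4.63 in WT experiment 1 and at 6.61, 6.95 and 6.88 in Casp9 KO. The knockout arrays were all above background and the wild-type arrays were not. Oas3 was at least 3.59-fold higher, with a log2 change of 2.22 (SE 0.31, limma adjusted p = 0.0039). Its other probe, ILMN_2650991 (121216054 to 121216103), was above background on 0 of 12 arrays, between 4.28 and 4.59, so that the rise of Oas3 rests on 1 of 2 probes.

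Oasl1 encodes a like protein without synthetase activity that in mouse limits the translation of Irf7, the factor that drives interferon genes. ILMN_2793464 (115387678 to 115387727, plus strand) was at 7.34, 7.86 and 7.52 in WT experiment 1 and at 9.76, 9.81 and 9.95 in Casp9 KO. The groups did not overlap, and the level rose by 2.27 (SE 0.21, limma adjusted p = 0.00020), or 4.81-fold. ILMN_2717366 (115387574 to 115387623) went from 6.58, 7.32 and 7.32 to 9.26, 9.38 and 9.48, a change of 2.30 (SE 0.27, adjusted p = 0.0012). The dimmer ILMN_2722380 (115382892 to 115382941) went from 4.83, 4.97 and 5.43 to 6.80, 6.91 and 6.87, a change of 1.78 (SE 0.24, adjusted p = 0.0034). All 3 Oasl1 probes therefore rose.

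Oasl2 encodes a like protein that in mouse keeps synthetase activity beside ubiquitin-like domains. ILMN_2954868 (115362161 to 115362210, plus strand) was at 7.40, 8.0 and 7.85 in WT experiment 1 and at 10.79, 11.17 and 11.20 in Casp9 KO. The change was 3.30 (SE 0.21, limma adjusted p = 2.0e-05), or 9.87-fold. ILMN_2599154 (115361696 to 115361745) was at 4.82, 4.74 and 4.75 in wild type, not above background on any array, and at 7.30, 7.77 and 7.79 in the knockout. It was at least 6.27-fold higher (adjusted p = 2.0e-05), and neither probe had overlapping groups.

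The size of these changes depends on background correction for dim probes. Without it the log2 changes of the 11 risen probes ran from 0.34 to 2.87, all still past the test, and those of Oas1a (0.60), Oas3 (0.90) and Oasl1 ILMN_2722380 (0.76) were less than 1.

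In Bak/Bax DKO part of the family was higher. Of the 13 tested probes 6 rose, 0 fell and 7 did not pass, where 1.43% of all tested probes rose and 0.392% fell. The 6 belong to Oas1g, Oas2, Oasl1 and Oasl2. The median log2 change of the 13 was 1.05, against 0.08 over all tested probes, and for 9 of the 13 every knockout array lay above every wild-type array, as for 11.8% of all probes. Without Bak/Bax DKO replicate 2 the count of risen member probes was again 6, where 1.70% of 18664 probes rose. In a fit of the 6 arrays of experiment 2 alone, Oas1a, Oas3, Oas1g ILMN_2816196 and Oasl1 ILMN_2722380 missed the filter and were not tested. Of the member probes tested there 2 passed, Oas2 and Oasl2 ILMN_2954868, as did 39 of 17522 probes in either direction.

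Oas2 had the largest change of the 13 probes here too. It was at 4.94, 4.86 and 4.87 in WT experiment 2, where 1 of 3 arrays was above background, and at 6.96, 7.59 and 7.27 in Bak/Bax DKO. The groups were far apart, with a change of 2.39 (SE 0.25, limma adjusted p = 0.00080) or 5.22-fold. With Bak/Bax DKO replicate 2 left out it was 2.23 (adjusted p = 0.00035). Without background correction it was 1.08 (adjusted p = 0.012), below the 1.58 of Oas1g ILMN_1253808.

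Oas1g ILMN_1253808 was at 7.56, 8.0 and 7.79 in WT experiment 2 and at 9.10, 10.41 and 9.56 in Bak/Bax DKO, where replicate 2 was the highest. It rose by 1.91 (SE 0.30, limma adjusted p = 0.0092), or by 1.55 once replicate 2 was left out (adjusted p = 0.0019). ILMN_2628822 was at 6.47, 6.67 and 6.71 in wild type and at 8.0, 8.87 and 8.08 in the double knockout, again with replicate 2 highest. It rose by 1.70 (SE 0.23, adjusted p = 0.0046), or by 1.42 without that array (adjusted p = 0.00063). The dim ILMN_2816196 was not above background on any of the 6 arrays of experiment 2, at 4.35 to 4.47 in wild type and at 4.32 to 4.43 in the double knockout, so no fold is given.

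Oasl2 ILMN_2954868 was at 7.62, 7.71 and 7.41 in WT experiment 2 and at 9.55, 9.81 and 9.17 in Bak/Bax DKO. The groups did not overlap and the change was 1.93 (SE 0.21, limma adjusted p = 0.0010), or 3.81-fold. ILMN_2599154 was at 4.60, 4.51 and 4.61 in wild type, below background, and at 5.56, 5.86 and 6.18 in the double knockout, above background on all 3 arrays. It was at least 1.97-fold higher (adjusted p = 0.0053), and without background correction its change of 0.45 missed the threshold (adjusted p = 0.054). Leaving out Bak/Bax DKO replicate 2 made these changes 1.78 (adjusted p = 0.00044) and 1.30 (adjusted p = 0.0031).

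Among the 3 Oasl1 probes 1 passed in Bak/Bax DKO. ILMN_2793464 was at 6.62, 6.58 and 7.21 in WT experiment 2 and at 7.87, 8.23 and 7.79 in the double knockout, a rise of 1.16 (SE 0.21, limma adjusted p = 0.017). Its call was lost without WT experiment 2 replicate 1 (adjusted p = 0.071) or 2 (adjusted p = 0.086), and held without Bak/Bax DKO replicate 2 (1.03, adjusted p = 0.016). ILMN_2717366, at 6.29, 6.07 and 6.5 against 6.79, 7.77 and 7.45, had a change of 1.05 that did not pass (adjusted p = 0.083), while leaving out replicate 1 of the double knockout gave 1.32 (adjusted p = 0.023). ILMN_2722380, at 4.58, 4.66 and 4.70 against 5.31, 5.75 and 4.70, had a change of 0.61 (adjusted p = 0.26). The double knockout arrays lay above the wild-type arrays for all 3 probes, though for the last of them the lowest of the former and the highest of the latter differed by less than 0.01.

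The genes Oas1a, Oas1b and Oas3 gave no call in Bak/Bax DKO. Oas1a ILMN_2924839 was at 4.45, 4.50 and 4.65 in WT experiment 2 and at 4.48, 5.27 and 4.76 in Bak/Bax DKO, above background on replicate 2 alone (change 0.30, limma adjusted p = 0.47). Without that array the change was 0.08. The Oas1b probe ILMN_2613140 was at 4.71, 5.14 and 5.01 against 5.18, 6.29 and 5.78 (0.79, adjusted p = 0.17), and 0.52 without replicate 2 (adjusted p = 0.25), while leaving out replicate 1 brought it to 1.08 (adjusted p = 0.037). ILMN_2823462 was at 4.46, 4.94 and 4.73 against 4.94, 5.53 and 5.28 (0.54, adjusted p = 0.38). Oas3 had another array high: it was at 4.42, 4.47 and 4.57 in wild type and at 4.88, 4.36 and 5.93 in the double knockout, with replicate 2 below background and replicate 3 highest. Its change was 0.57 (SE 0.31, adjusted p = 0.41), and 0.91 without replicate 2 (adjusted p = 0.059).

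Bak/Bax DKO replicate 2 was the highest of its group for 10 of the 13 probes and the lowest for 2, Oas3 among the latter. Replicate 1 was the lowest for 8. In the other groups no array was the highest for more than 7 of the 13 or the lowest for more than 9, the latter being WT experiment 1 replicate 1. The part of array quality in this order was not tested.

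**Figure D3:**
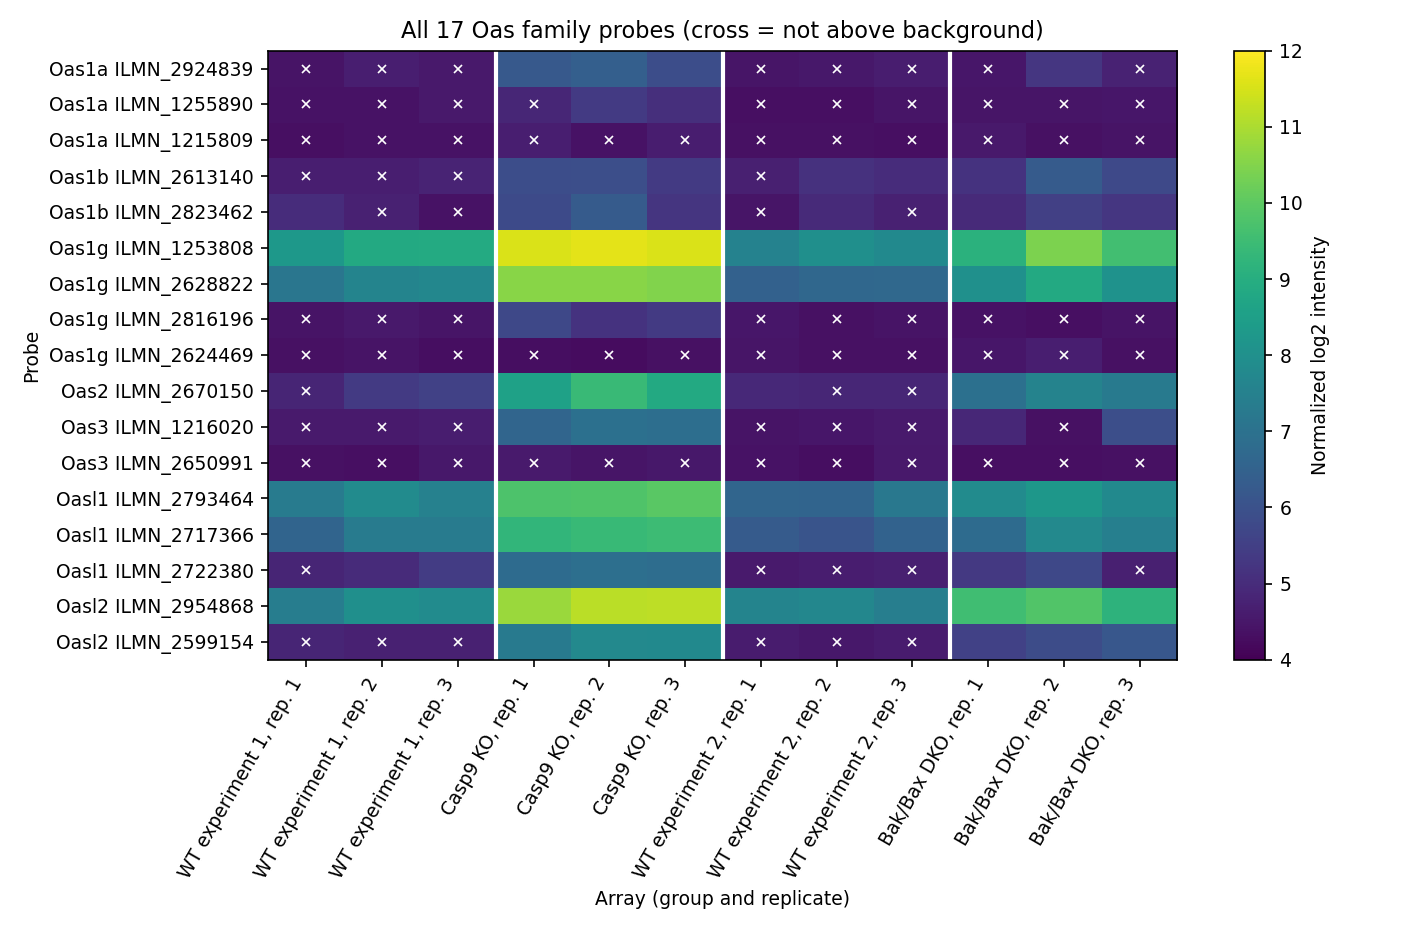
Normalized log2 intensity of all 17 probes of the family (rows) on the 12 arrays (columns, by group and replicate), with a white cross where the array was not above background. The 13 tested probes are above background on all 3 Casp9 KO arrays, and 5 probes are so on all 12 arrays.

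The next comparison asks whether the loss of caspase-9 and the loss of Bak and Bax changed the family by different amounts. For all 13 tested probes the change in Casp9 KO was the larger, by 0.22 to 1.65 on the log2 scale, with a median difference of 1.25 against -0.10 over all tested probes. The difference passed the test for 2 of the 13, where 0.631% of all tested probes passed in this direction and 0.859% in the other. Those were Oasl2 ILMN_2599154, with a difference of 1.56 (SE 0.25, limma adjusted p = 0.015), and the dim Oas1g ILMN_2816196, with 1.00 (SE 0.21, adjusted p = 0.048). The Oas1g probe passed the filter only through the Casp9 KO arrays, as did Oas1a and Oas3, so their differences had to favour Casp9 KO, and the counts and the median describe the tested probes without supporting a direction. Oasl2 ILMN_2599154 was below background on all 6 wild-type arrays, so that each of its changes is taken from background, while its means of 7.62 in Casp9 KO and 5.87 in Bak/Bax DKO were both measured above it. Just beyond the threshold were Oasl2 ILMN_2954868 (1.37, adjusted p = 0.051) and Oas1a (1.34, adjusted p = 0.052), followed by Oas1g ILMN_2628822 (1.36, adjusted p = 0.071). Oas3 (1.65, adjusted p = 0.093), Oas2 (1.32, adjusted p = 0.10) and Oas1g ILMN_1253808 (1.00, adjusted p = 0.28) did not pass.

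This count rests on single arrays. Without Bak/Bax DKO replicate 2, 11 of the 13 differences passed, all but the 2 Oas1b probes, where 3.06% of 18664 probes passed in this direction. Over all probes the calls in both directions rose from 281 to 982. Standard errors were then smaller: for Oas3 the SE went from 0.43 to 0.31 while the difference went from 1.65 to 1.31. Oas2 was then at 1.48 (limma adjusted p = 0.022), Oasl2 ILMN_2954868 at 1.53 (adjusted p = 0.0066) and Oas1a at 1.56 (adjusted p = 0.0023). With WT experiment 1 replicate 2 or 3 or Casp9 KO replicate 3 left out, 0 passed, and the lowest adjusted p for Oasl2 ILMN_2599154 over the 3 was 0.051. Without any 1 of the remaining arrays 1 or 2 passed. Oas1g ILMN_2816196 lost its call without any 1 of the 6 wild-type arrays (adjusted p = 0.10 to 0.12). Leaving out replicate 1 or 3 of the double knockout had the same effect (adjusted p = 0.058 and 0.069), and the probe was not tested without any 1 of the Casp9 KO arrays. Oas3 reached the threshold without Bak/Bax DKO replicate 3, its highest array in that group (2.09, adjusted p = 0.0042).

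Of the 6 probes that rose in both knockouts, 4 were above background on all 12 arrays. For these the log2 change in Bak/Bax DKO was 51.2% to 65.6% of that in Casp9 KO: 65.6% for Oas1g ILMN_1253808, 58.4% for Oasl2 ILMN_2954868, 55.5% for Oas1g ILMN_2628822 and 51.2% for Oasl1 ILMN_2793464. No such share is given for Oas2 and Oasl2 ILMN_2599154, which were below background on 3 and all 6 of the wild-type arrays. Oasl1 ILMN_2717366 was also above background on all 12 arrays but did not pass in Bak/Bax DKO. Its log2 changes were 2.30 in Casp9 KO and 1.05 in Bak/Bax DKO, and it is not in the range above. Taking only probes called in Bak/Bax DKO favours larger shares. The 2 knockout changes share no arrays. A log2 change over 1 in both was found for 58 tested probes (0.307%), and 7 of these are member probes.

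**Figure D4:**
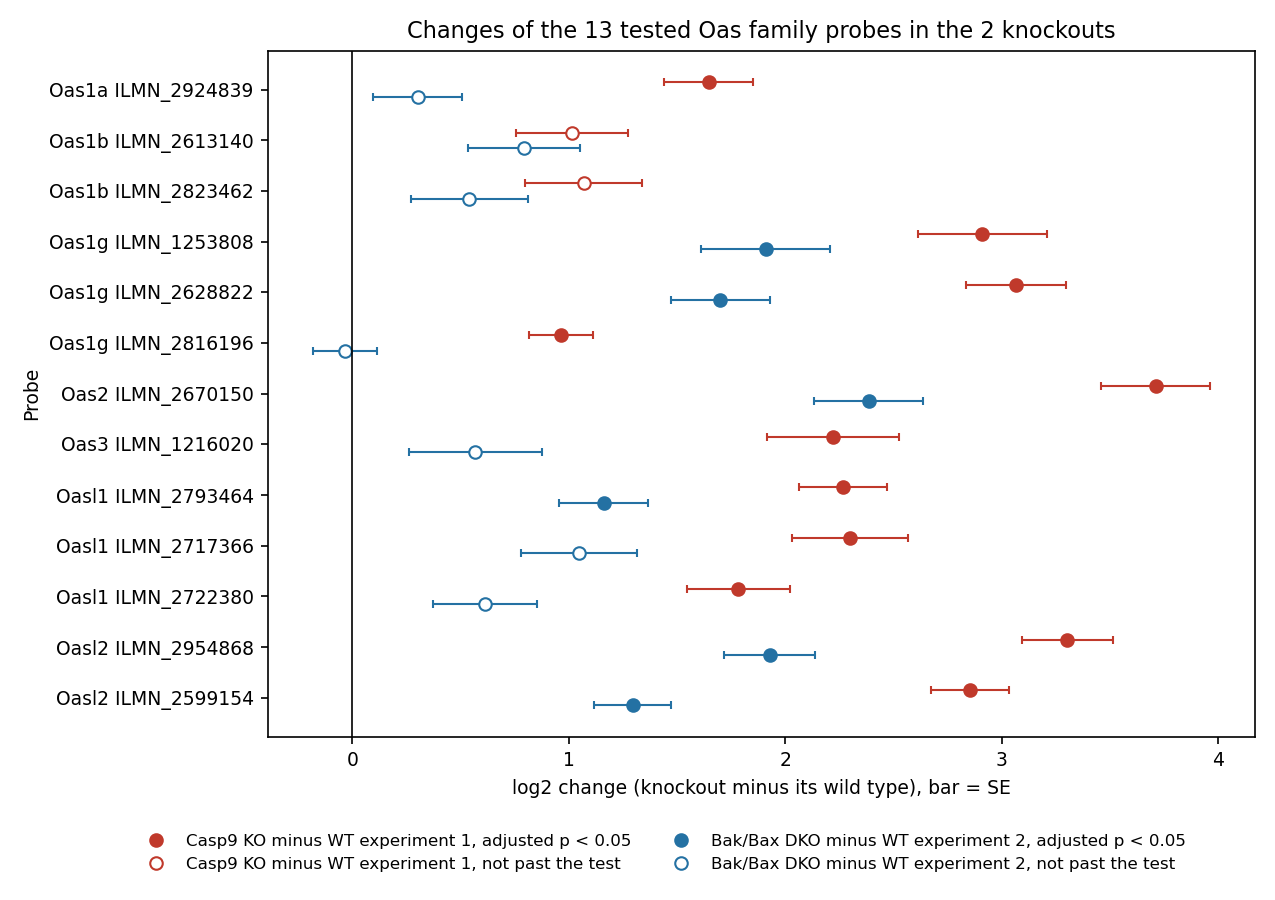
Log2 change (knockout minus its wild type) of each of the 13 tested probes with its SE, in red for Casp9 KO and blue for Bak/Bax DKO, filled where the adjusted p was under 0.05. The red point lies to the right of the blue one for every probe, and closest to it for Oas1b ILMN_2613140.

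**Figure D5:**
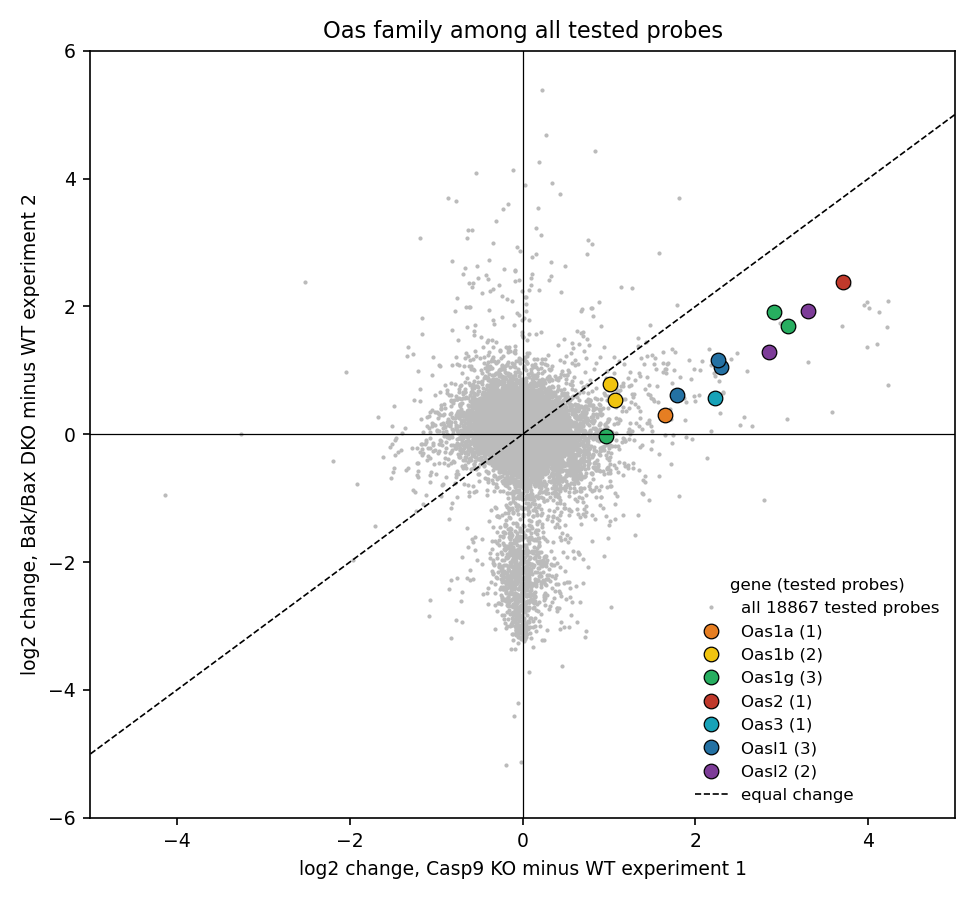
Log2 change in Casp9 KO (horizontal axis) against that in Bak/Bax DKO (vertical axis) for all 18867 tested probes in grey. The 13 member probes are coloured by gene, and a dashed line marks equal change. All member probes lie below the line and to the right of 0, and 12 of them lie above 0 on the vertical axis.

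The 2 wild types also differed in part. Of the 13 probes 2 were lower in WT experiment 2 than in WT experiment 1 and 0 were higher, where 3.11% of all tested probes were lower and 5.24% higher. Oas1g ILMN_2628822 was lower by 0.87 (log2 change -0.87, limma adjusted p = 0.042) and Oasl1 ILMN_2793464 by 0.77 (-0.77, adjusted p = 0.043). Experiment and BeadChip cannot be told apart here. Both calls were lost without WT experiment 1 replicate 2 or 3, without WT experiment 2 replicate 1 or 2, or without any 1 of the 3 Casp9 KO arrays. Without WT experiment 1 replicate 1, WT experiment 2 replicate 3 or Bak/Bax DKO replicate 1 there was 1 call. With Bak/Bax DKO replicate 2 omitted 4 member probes were lower, where 9.54% of 18664 probes were lower and 10.5% higher.

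Ordered by mean level, the bright probes ran from Casp9 KO through Bak/Bax DKO and WT experiment 1 to WT experiment 2. For Oas1g ILMN_1253808 the means were 11.59 ± 0.08, 9.69 ± 0.67, 8.68 ± 0.36 and 7.78 ± 0.22 (SD, n = 3), and no neighbours in this order overlapped. For Oas2 they were 8.96 ± 0.43, 7.28 ± 0.31, 5.25 ± 0.38 and 4.89 ± 0.04, and the 2 wild types overlapped. For Oasl2 ILMN_2954868 they were 11.05 ± 0.23, 9.51 ± 0.32, 7.75 ± 0.31 and 7.58 ± 0.15, with overlap of the 2 wild types alone. For Oasl1 ILMN_2793464 they were 9.84 ± 0.10, 7.97 ± 0.24, 7.57 ± 0.26 and 6.80 ± 0.35, and Bak/Bax DKO overlapped WT experiment 1. For the dim Oas3 they were 6.81 ± 0.18, 5.05 ± 0.80, 4.59 ± 0.03 and 4.49 ± 0.08, and Bak/Bax DKO overlapped both wild types. Oas2 was above background on 2 arrays of WT experiment 1 and 1 of WT experiment 2, and Oas3 on none of either. The order of their 2 wild types therefore rests in part or in whole on background values. Oas1b ILMN_2613140 departed from this order, with Bak/Bax DKO at 5.75 ± 0.56 and Casp9 KO at 5.73 ± 0.31, which overlapped. Comparisons across the experiments also cross BeadChips.

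Of other genes tied to 2-5A, Abce1, Pde12 and Akap7 were tested. Abce1, also known for its part in ribosome recycling, had log2 changes of -0.14 in Casp9 KO and 0.14 in Bak/Bax DKO. Those of Pde12, an enzyme that degrades 2-5A, were -0.08 and 0.33, and those of Akap7, whose nuclear form is known to degrade it too, were -0.20 and 0.26. With limma 0 of these 3 were called in either knockout, and 0 had an unadjusted p under 0.05. Of the paralogues Oas1c, Oas1d, Oas1e, Oas1f and Oas1h, 2 were tested and 0 were called: the log2 changes in Casp9 KO and Bak/Bax DKO were 0.29 and 0.24 for Oas1c and 0.57 and 0.18 for Oas1d. In Casp9 KO 1 of the 2 had an unadjusted p under 0.05, and in Bak/Bax DKO 0. The 5 nearest annotated genes on each side of the Oas and of the Oasl gene cluster gave 0 calls in either knockout among the 4 and 2 tested. At an unadjusted p under 0.05, each cluster had 0 such neighbours in Casp9 KO and 1 in Bak/Bax DKO.

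Of 9 tested genes that sense or edit double-stranded RNA, 2 rose in Casp9 KO and the same 2 rose in Bak/Bax DKO. Over all tested probes 0.88% and 1.43% rose. Dhx58, a regulator of RNA helicase sensors, rose by 2.23 (limma adjusted p = 0.00013) and 0.91 (adjusted p = 0.037), and its difference passed (1.32, adjusted p = 0.041). Ddx58, which encodes the sensor RIG-I, rose by 1.54 (adjusted p = 0.0039) and 1.02 (adjusted p = 0.040). Eif2ak2, the kinase PKR, had log2 changes of 1.30 in Casp9 KO (adjusted p = 0.055) and 0.48 in Bak/Bax DKO, and Adar, which edits double-stranded RNA, of 0.80 and 0.68, none past the test. The median of the 9 was 0.80 and 0.44, against -0.03 and 0.08 over all tested probes. With Bak/Bax DKO replicate 2 omitted, 5 of the 9 rose in Casp9 KO and 2 in Bak/Bax DKO, where 2.51% and 1.70% of 18664 probes did.

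Among transcription factor genes tied to the family, Irf9 (0.72, limma adjusted p = 0.046) and Irf7 (3.69, adjusted p = 0.00010) rose in Casp9 KO. In Bak/Bax DKO Irf9 (0.97, adjusted p = 0.0085) and Irf7 (1.70, adjusted p = 0.017) rose too. Stat2, at 0.79 and 0.27, passed in neither. Irf1 passed in neither and was at 8.78 ± 3.94 (SD, n = 3) in Bak/Bax DKO. The difference of the changes passed for Irf7 (1.99, adjusted p = 0.048) and was -0.25 for Irf9 (adjusted p = 0.60). Without Bak/Bax DKO replicate 2 the Irf7 difference was 2.39 (adjusted p = 0.00028), and Irf9 (0.87) and Irf7 (1.30) again rose in Bak/Bax DKO. Of 9 tested antiviral effectors outside the family, 8 rose in Casp9 KO and 5 in Bak/Bax DKO, with medians of 2.60 and 1.09. Over all tested probes 0.88% and 1.43% rose, with medians of -0.03 and 0.08. The differences of the effectors passed for 3 of the 9, Mx2 (1.61), Rsad2 (2.68) and Usp18 (2.03). A positive difference passed for 0.631% of all tested probes. Without Bak/Bax DKO replicate 2 the differences passed for 7 of the 9. With that array left out, 3.06% of 18664 probes had a positive difference that passed.

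The genes whose pattern was most like the family's were sought by Pearson's r over the 12 arrays with the mean of the 7 brightest member probes, 1 per gene. The 10 closest were Usp18 (0.997), Dhx58 (0.990), Xaf1 (0.989), Isg15 (0.987), Parp14 (0.986), Helz2 (0.986), Irf7 (0.985), Ifit3 (0.984), Ifi27l2a (0.983) and Phf11a (0.983). The 12 points fall into the 4 groups, so these values describe the shared group pattern. The choice by r favours genes that rose with the family, so their own changes only describe them and add no support. Each of the 10 rose in Casp9 KO, by 1.66 to 4.23, and 9 of them in Bak/Bax DKO. The exception, Ifi27l2a, was at 1.37 there (limma adjusted p = 0.079). Over all tested probes 0.88% rose in Casp9 KO and 1.43% in Bak/Bax DKO.

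Markers of other blood cells moved with the groups in part. The summed linear level of 7 monocyte and macrophage genes was 1661 to 2397 on the Casp9 KO arrays and 931.3 to 1257 on the WT experiment 1 arrays, and 1 of the 7, Mpeg1, rose (1.29, limma adjusted p = 0.047). In Bak/Bax DKO that sum was 1120 to 2152 against 1306 to 1460 in its wild type, with C1qb and C1qc risen. Of 5 tested plasmacytoid dendritic genes 0 rose in Casp9 KO, with 1 at an unadjusted p under 0.05, and the defining gene Siglech was below background on all 6 arrays of experiment 1. In Bak/Bax DKO 1 of the 5 was called, Cox6a2, which fell (-1.63, adjusted p = 0.027), and 2 had an unadjusted p under 0.05. Their sum was 2362 to 3327 in Casp9 KO against 1480 to 1778. The list also holds the interferon-induced Bst2, with a log2 change of 1.82 in Casp9 KO. Those of Siglech, Ly6d, Tcf4 and Cox6a2 there were -0.13 to 0.26. In Bak/Bax DKO the sum was 1400 to 2141 against 1828 to 2410. With limma, erythroid genes had 0 calls of 5 in either knockout, 3 and 1 of them at an unadjusted p under 0.05, with sums of 2495 to 4033 against 5141 to 5972 in experiment 1 and 3262 to 6342 against 4119 to 4341 in experiment 2. Neutrophil genes had 0 calls of 4 in either, 0 and 3 of them at an unadjusted p under 0.05, with sums of 15077 to 25035 against 15557 to 22554 and 7588 to 14877 against 24511 to 25974. Of 6 tested stem and progenitor genes 2 rose in Bak/Bax DKO and 0 were called in Casp9 KO. Gata2 was 1 of the 2 (0.98) and was at -0.06 in Casp9 KO. The sum of the 6 was 6109 to 7237 in Casp9 KO against 7351 to 8122 in WT experiment 1. In Bak/Bax DKO it was 10980 to 14769 against 6420 to 8265 in its wild type. The lymphoid genes Cd79a (-0.78) and Nkg7 (-1.45) fell in Bak/Bax DKO, and Cd3e, Cd3g, Cd8a and Ncr1 were below the filter. With all arrays 0.88% of tested probes rose in Casp9 KO, and 1.43% rose and 0.392% fell in Bak/Bax DKO. With Bak/Bax DKO replicate 2 omitted, 2 erythroid genes and 1 stem and progenitor gene fell in Casp9 KO. There 2 monocyte and macrophage genes and Bst2 rose. In Bak/Bax DKO 2 neutrophil genes and Cox6a2 (-1.25, limma adjusted p = 0.0092) then fell, and Cd79a (-0.77) and Nkg7 (-1.83) fell again. C1qb (1.67) and C1qc (1.25) again rose there, and so did 2 stem and progenitor genes, with Gata2 at 0.86. Of 18664 probes 2.51% rose and 1.81% fell in Casp9 KO in that fit, and 1.7% rose and 1.21% fell in Bak/Bax DKO. The part of these marker shifts in the changes of the family was not tested.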

How the data were processed

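The authors deposited bead intensity values on a linear scale for 45281 probes and 12 arrays, each with a detection score given as a fraction. The score rises with intensity, so it was read as 1 minus the detection p-value. They also deposited normalized log2 values, which were used for every result. GenomeStudio and limma are named in the submitters' processing notes, with no version. Processing the intensities with neqc (normexp background correction, offset 16, quantile normalization) gave values within 0.0197 of the deposited log2 values.

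Probes with a score above 0.95 on at least 3 arrays (18867) entered a model of 4 group means in limma 3.58.1 (R 4.3.3), with 8 residual degrees of freedom, eBayes, two-sided tests and Benjamini-Hochberg adjustment over all of these probes. The model was also run on simulated data, with the same spread for a probe on every array. That run cannot show how an array that stands apart, such as Bak/Bax DKO replicate 2, affects the calls. The number of arrays limits the precision. The members and lists were chosen with earlier results of these data known. Named were every member probe, called genes of the lists, the transcription factors and the 10 genes most like the family. Genes of lists are given by their brightest tested probe. Symbols came through the Entrez ID and RefSeq (GRCm38.p6). Exon positions and probe sequences were not used here. Alternatives were other background corrections, normalizations, filters and priors, array weights, 1 probe per gene, fewer arrays and a replicate block. Results on some genes of the lists are not reported here.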

Additional observations from a re-analysis of the deposited data

Results flagged for a closer look

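By a test of the difference itself, the changes in the 2 knockouts, each against its own wild type, differed for 2 of the 13 tested member probes. Oasl2 ILMN_2599154 had a difference of 1.56 (limma adjusted p = 0.015), with changes of 2.85 and 1.29, both taken from wild types that were below background on every array. Oas1g ILMN_2816196 had a difference of 1.00 (adjusted p = 0.048), with changes of 0.96 and -0.03, and was above background on the 3 Casp9 KO arrays alone, through which it passed the filter on low values, so it had to differ.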

How the results depend on the processing

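In Casp9 KO the 11 calls became 6, of the 7 probes then tested, with 1 probe per gene, and 10 to 13 when each array was left out in turn. In Bak/Bax DKO the 6 calls became 2 in a fit of experiment 2 alone, and 5 to 8 with arrays left out. The 2 differences of the effects became 6 without background correction, 1 with detection on at least 6 arrays, 11 with array weights, 6 with a trended and robust prior, and 0 to 11 with arrays left out. Over all 18867 probes the called differences went from 281 to 261 without background correction and to 384 with that prior. With detection on at least 6 arrays they were 226 of 16902. The 2 calls between the wild types became 0 without background correction or without a detection filter, 1 with 1 probe per gene, 4 with array weights and 0 to 4 with arrays left out. The change of Oas1g ILMN_2816196 in Bak/Bax DKO turned to 0.19 with median-centred arrays (limma adjusted p = 0.79), and the difference for Oas1b ILMN_2613140 ran from -0.066 to 0.49 with arrays left out. The Oas1b probes passed in Casp9 KO with array weights (adjusted p = 0.0026 and 0.0094), and ILMN_2613140 in a fit of experiment 1 alone (adjusted p = 0.012). Over all probes, array weights raised the calls from 216 to 1184 in Casp9 KO, from 344 to 554 in Bak/Bax DKO, from 281 to 1078 for the differences and from 1576 to 5221 between the wild types. Separate fits gave 720 and 39 calls in the knockouts, and leaving out arrays gave 107 to 806, 133 to 542, 100 to 982 and 692 to 3750 calls, each time the most without Bak/Bax DKO replicate 2. With 1 probe per gene, 174 of 11772 probes were called in Casp9 KO and 856 between the wild types. Between the wild types there were also 1494 calls without background correction and 1440 of 45281 without a detection filter.

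Whether the replicate numbers pair the arrays is not known. The deviations of same-numbered arrays correlated at 0.204, -0.0752 and 0.0652 in experiment 1 and at 0.114, 0.0472 and 0.0603 in experiment 2. Those of arrays with different numbers correlated at -0.181 to 0.137 in experiment 1 and at -0.0720 to -0.0037 in experiment 2. In experiment 2 every array correlated best with its own number, and in experiment 1 this held for 1 of 3 numbers. With the replicate number as a block, 10 member probes were called in Casp9 KO, 5 in Bak/Bax DKO and 1 for the differences, Oasl2 ILMN_2954868. Of all probes 131, 158 and 102 were then called. Only 12 arrays were measured, and 4 member probes were above background on too few of them to be tested.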
